A study of Mus musculus with 24 samples.

Results

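Y RNAs were followed through the deposited small RNA sequencing of mouse cells that differ in the Huntington's disease gene Htt. The members are the 3 rows whose gene identifiers map to Rny1, Rny3 and Gm26168, out of 55335 genes. They were chosen with their levels in both cell types in view, so those levels are described here without a test. Group names follow the titles: WT is wild type, KO is the Htt knockout, and Q20, Q50, Q92 and Q111 are heterozygous Hdh CAG knock-in lines with the repeat number in their name. The growth protocol gives 89 repeats for the allele titled Q92, and its columns in the count table are also named Q89. Each genotype was 1 line, so a genotype cannot be told apart from its line. The lines were grown as mouse embryonic stem cells (mESC) with serum and leukemia inhibitory factor over irradiated fibroblast feeder cells. Neural progenitor cells (NPC) were derived from them in N2B27 medium and then kept on laminin with FGF and EGF. The design gives 2 samples per genotype and cell type, 24 libraries in all, from total RNA read in single reads of 50 bases. It calls the samples biological without naming cultures, so p-values measure only the spread between these samples, which may be partly technical.

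Y RNAs are short noncoding RNAs made by RNA polymerase III. Their 5′ and 3′ ends pair into a stem that is bound by the Ro60 protein, and the run of U at the 3′ end is bound by La (Ssb). They are studied in RNA quality control, in the start of DNA replication and as a source of small RNA fragments. Mice have the canonical genes Rny1 and Rny3, while Gm26168 is annotated only as a miscellaneous RNA and resembles Rny1.

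The RNA sequences are shown because how alike the members are sets how far their reads can be told apart. They are the annotated transcripts of GENCODE M21 on GRCm38, written as DNA from 5′ to 3′. In Rny1 and Rny3, capitals mark the runs of 8 or more bases that both share. In Gm26168, capitals mark the bases that differ from Rny1.
Rny1: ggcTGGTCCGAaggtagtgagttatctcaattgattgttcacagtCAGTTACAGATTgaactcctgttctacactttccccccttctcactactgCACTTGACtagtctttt
Rny3: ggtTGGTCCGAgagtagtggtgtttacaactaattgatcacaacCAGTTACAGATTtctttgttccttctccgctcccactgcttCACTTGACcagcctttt
Gm26168: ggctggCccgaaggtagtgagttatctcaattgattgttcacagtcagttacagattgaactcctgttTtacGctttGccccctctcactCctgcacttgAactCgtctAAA

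Rny1 (ENSMUSG00000065701) lies at chr6:47788069-47788180 on the minus strand and is 112 bases long. Rny3 (ENSMUSG00000064945) lies at chr6:47781624-47781725 on the plus strand, 6343 bases away, and is 102 bases long. Gm26168 (ENSMUSG00000065721) lies apart from them at chr6:122623547-122623658 on the plus strand and is 112 bases long. All 3 are single-exon noncoding genes of the misc_RNA class.

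The canonical pair share their ends and a middle stretch. TGGTCCGA stands at positions 4 to 11 of both, and CACTTGAC stands at 96 to 103 of Rny1 and 86 to 93 of Rny3. CAGTTACAGATT, in the middle of both, is in all 3 members, and on either strand in 5 of 566 misc_RNA transcripts (0.883%). Over their whole length Rny1 and Rny3 were identical at 72.3% of 112 aligned columns. Both end in TTTT, as do 16 of 566 misc_RNA transcripts (2.83%). In folds predicted by RNAfold, 17 base pairs of Rny1 and 21 of Rny3 joined the first 30 bases to the last 30.

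Gm26168 was identical to Rny1 at 102 of 113 aligned columns (90.3%). With positions counted from 1 at the 5′ end of Rny1, Rny1's base first, the substitutions were T7C, C69T, A73G, C78G, A92C, A105C, T110A, T111A and T112A. There was also 1 deleted and 1 inserted base. Between positions 7 and 69 the pair ran identical over 61 bases, so only 1 of the 11 differences lay in the first 56 bases of Rny1. The last 3 substitutions replace the terminal T run, and Gm26168 does not end in TTTT. In its predicted fold, 0 base pairs joined the first 30 bases to the last 30.

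These differences bear on the counts. Of the 63 stretches of 50 bases in Gm26168, the length of a full read, 12 (19.0%) were exact in Rny1 and 28 (44.4%) were within 2 mismatches of it. Of its 93 stretches of 20 bases, 42 (45.2%) were exact in Rny1. How reads that match both genes were assigned is not given in the sources used here, so Gm26168 is reported as uncertain as a transcript of its own. Rny3 shared no stretch of 20 bases with Rny1 or Gm26168. Of its 83 such stretches, 1 (1.20%) occurred in an annotated transcript outside the members, against 23 of 93 (24.7%) for Rny1, and at 30 bases neither shared any with such a transcript.

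The libraries held 642384 to 2360434 counts in mESC and 342022 to 682113 in NPC. The labelled cell types were checked against marker genes. Summed mESC markers stood at 779 to 2520 counts per 1000000 library counts (CPM) in mESC and at 0 to 5.19 CPM in the 10 NPC libraries other than Q20. In the 2 Q20 NPC libraries they stood at 399 and 401 CPM. Summed NPC markers stood at 6.45 to 16.1 CPM in mESC, 251 to 576 CPM in the 10 NPC libraries other than Q20, and 227 and 233 CPM in Q20 NPC. The Q20 NPC libraries thus carried RNAs from both marker lists. The members' ratios of shares, edgeR tests among NPC genotypes, slopes and interaction are given with and without Q20. Tests of other genes between cell types and correlations include it. Most mESC marker counts in Q20 NPC were of Mir302b (261) and Mir293 (107). In mESC, Mir302b had 2797 counts, of which only 626 were in lines other than Q20. Mir293 had 20821 counts in mESC, of which 17072 were in lines other than Q20. Of the 22 markers, 10 had no count in Q20 NPC, Nanog and Zfp42 among them, and Pou5f1 had 2. Of 12 feeder fibroblast markers, 10 had no count in any mESC library, and the sum was at most 2 counts per library. Whether any library was a mixture of cell types was not tested, nor was the part of such a mixture in the Y RNA levels. In bulk RNA a different cell number and a different amount of RNA per cell cannot be told apart.

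Rny1, Rny3 and Gm26168 had 1552088, 22400 and 4398 counts over the 24 libraries. Together they held 99.6% of the counts of the 562 misc_RNA genes. Sequence similarity (BLAST, E value up to 1e-05) found 19 other misc_RNA genes like a Y RNA, 18 of them nearest to Rny1. Of these, 7 had any count, 72 counts in all, and the highest were Gm24379 with 29, Gm26456 with 20 and Gm26124 with 18.

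**Figure D1:**
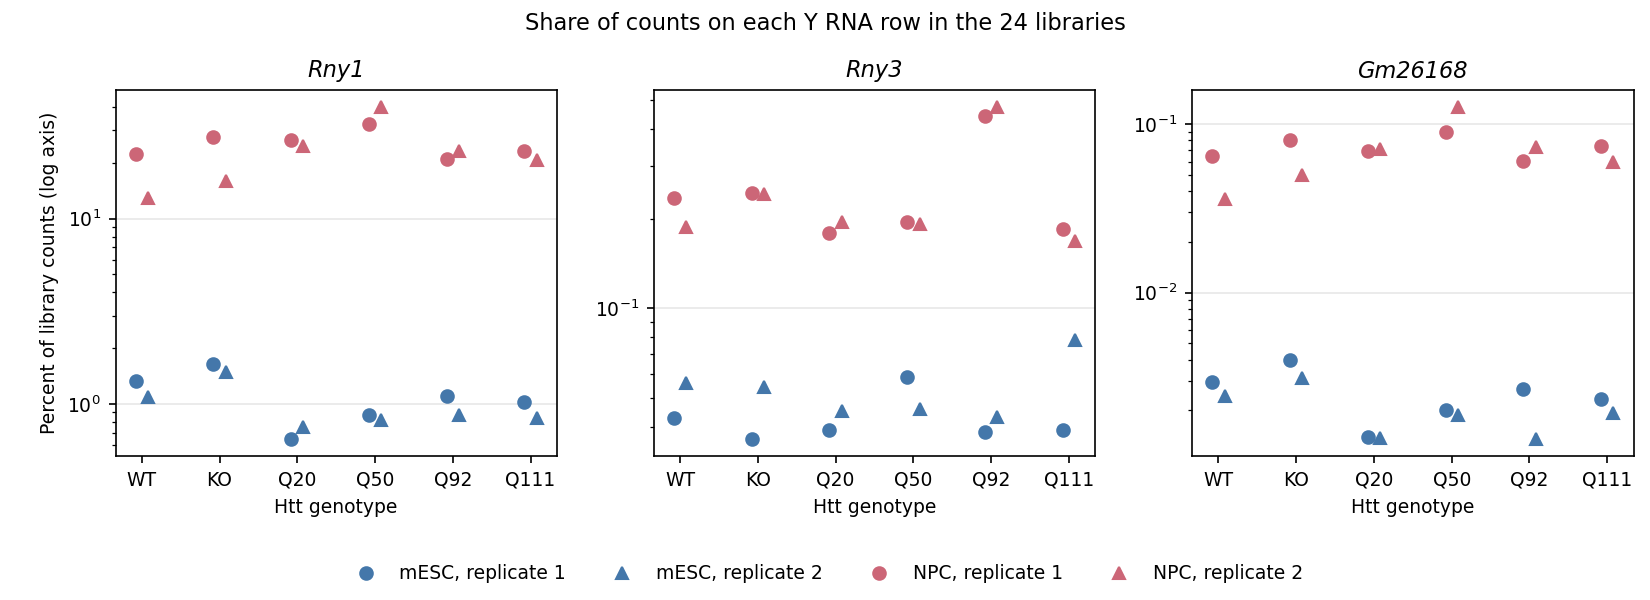
Share of library counts of Rny1, Rny3 and Gm26168 (percent, log axis) in each of the 24 libraries, by genotype and cell type; each point is 1 library. Every NPC library lies above every mESC library for all 3 RNAs, with Rny1 at 13.0% to 40.3% in NPC. The members were chosen on this contrast, in which edgeR called 275 of 904 genes tested higher in NPC.

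Rny1 was the RNA with the most counts in all 12 NPC libraries, and stood at rank 18 to 22 in mESC. In mESC, its share of library counts was 1.65% and 1.49% in KO, 1.33% and 1.08% in WT, 0.644% and 0.747% in Q20, 0.869% and 0.823% for Q50, 1.10% and 0.872% for Q92, and 1.02% and 0.835% in Q111. In NPC, its share was 27.6% and 15.9% in KO, 22.3% and 13.0% in WT, 26.7% and 24.7% in Q20, 32.6% and 40.3% for Q50, 21.1% and 23.3% for Q92, and 23.3% and 20.7% in Q111. The lowest NPC library, WT replicate 2, was far above the highest mESC library, KO replicate 1. The mESC mean was 1.04% ± 0.309 and the NPC mean 24.3% ± 7.20 (SD over 12 libraries), a ratio of 23.4.

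The distance between the cell types differed by genotype. For Rny1 the ratio of NPC to mESC means was 13.9 in KO, 14.6 in WT, 22.5 in Q92, 23.7 in Q111, 36.9 in Q20 and 43.1 in Q50. KO and WT had the lowest ratios, and they also had the highest mESC shares. Because Rny1 fills so much of the NPC libraries, a share of all counts compresses it: relative to counts other than the 3 Y RNAs, its NPC mean was 33.4% ± 13.9 and its mESC mean 1.05% ± 0.317 (SD over 12 libraries). Relative to snoRNA counts these means were 47.4% ± 19.5 and 1.60% ± 0.445. Without the Q20 libraries the ratio of shares was 21.7.

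Rny3 had a lower and less changed share. In mESC, it was 0.0363% and 0.0542% in KO, 0.0430% and 0.0562% in WT, 0.0389% and 0.0452% in Q20, 0.0586% and 0.0461% for Q50, 0.0383% and 0.0431% for Q92, and 0.0391% and 0.0781% for Q111. In NPC, it was 0.245% and 0.242% in KO, 0.234% and 0.187% in WT, 0.179% and 0.195% in Q20, 0.195% and 0.192% for Q50, 0.444% and 0.476% for Q92, and 0.184% and 0.168% in Q111. The cell types did not overlap, and within NPC both Q92 libraries stood above the other 10. The mESC mean was 0.0481% ± 0.0120 and the NPC mean 0.245% ± 0.104 (SD over 12 libraries), a ratio of 5.10. By genotype the ratio ran from 3.01 in Q111 to 11.3 in Q92.

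Gm26168 had few counts. In mESC, it had 86 and 30 counts in KO, 67 and 25 in WT, 25 and 26 in Q20, 43 and 12 for Q50, 57 and 13 for Q92, and 55 and 22 in Q111. In NPC, it had 312 and 175 counts in KO, 443 and 159 in WT, 333 and 385 in Q20, 426 and 599 for Q50, 266 and 317 for Q92, and 252 and 270 in Q111. As a share the cell types did not overlap, at 0.00134% to 0.00396% in mESC and 0.0361% to 0.127% in NPC. The mean shares were 0.00228% ± 0.000798 and 0.0713% ± 0.0225 (SD, n = 12 each), a ratio of 31.3.

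The depth gave different precision to each member. The exact (Clopper-Pearson) 95% binomial interval of a library's share reached at most 2.69% of the value on either side for Rny1, 11.6% for Rny3 and 61.5% for Gm26168 in mESC, and 0.766%, 7.88% and 15.9% in NPC. These intervals cover counting error only. In an edgeR fit of all 24 libraries, which scales by a trimmed mean (TMM), the NPC minus mESC difference was 4.21 ± 0.15 for Rny1, 1.95 ± 0.12 for Rny3 and 4.62 ± 0.20 for Gm26168 (log2, SE). In that fit 275 of 904 genes tested (30.4%) were called higher in NPC at an adjusted p under 0.05. The members were chosen on this contrast, so nothing is read from their place in it.

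Genes around the members had few counts. Pdia4, which encodes a protein disulfide isomerase of the endoplasmic reticulum and lies 7960 bases from Rny1, had 49 counts over the mESC libraries and 38 over the NPC libraries. These sums are not scaled for depth, and most mESC libraries were deeper than every NPC library. The pseudogene Rpl31-ps7, between Rny1 and Rny3, had 0 counts in all, and Mir704 had 1. Beside Gm26168, the stem cell genes Dppa3 (2751 bases away) and Gdf3 (13459 bases away) had 11 and 34 counts in mESC and 0 in NPC. With so few counts and less depth in NPC, no direction is read from these genes or from Pdia4.

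**Figure D2:**
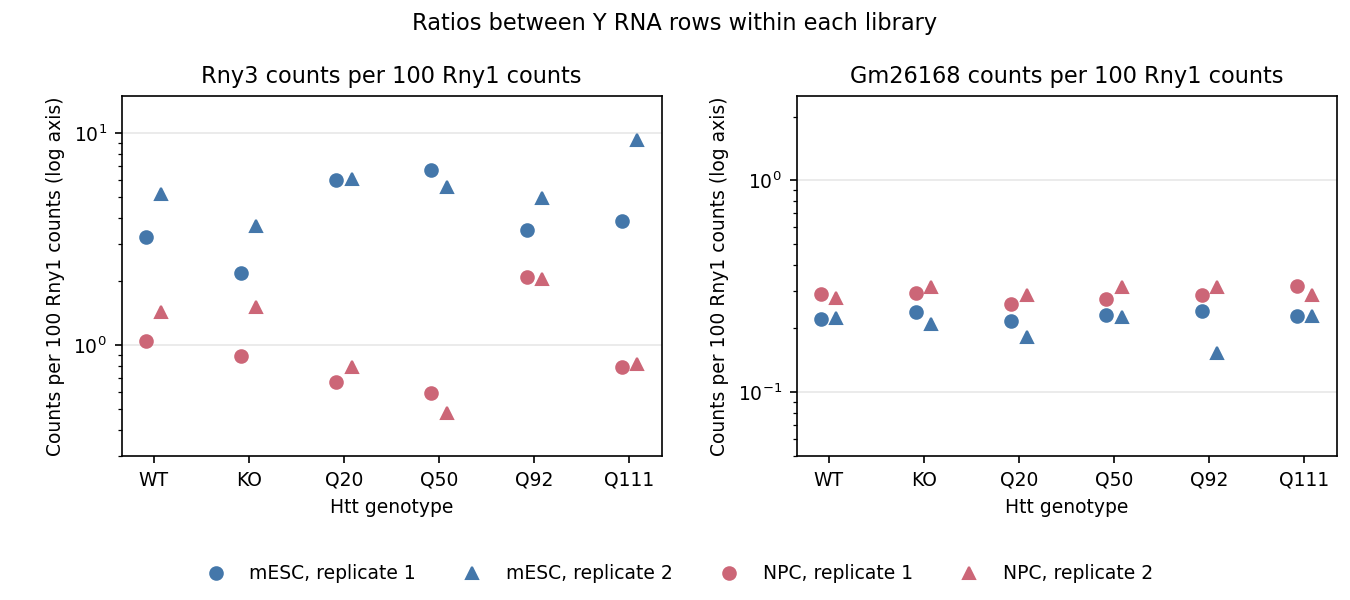
Counts of Rny3 (left) and Gm26168 (right) per 100 counts of Rny1 in the same library (log axes), by genotype and cell type; each point is 1 of 24 libraries. The Rny3 ratio spans 0.477 to 9.34 with both Q92 NPC libraries highest in NPC, while the Gm26168 ratio spans 0.154 to 0.316.

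A ratio within a library does not depend on how libraries are scaled. The canonical Y RNAs kept no fixed ratio to each other. Per 100 Rny1 counts, mESC held 5.03 ± 1.93 Rny3 counts and NPC 1.10 ± 0.551 (SD over 12 libraries), and over the 24 libraries the highest ratio was 19.6 times the lowest. The lowest mESC library, KO replicate 1 at 2.20, was just above the highest NPC library, Q92 replicate 1 at 2.10. Per base of length, the mESC level of Rny3 was 5.52% ± 2.12 of that of Rny1, and the NPC level 1.21% ± 0.605 (SD over 12 libraries).

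Within NPC, the Rny3 counts per 100 Rny1 counts were 2.07 ± 0.0413 in Q92, 1.25 ± 0.277 in WT, 1.20 ± 0.448 in KO, 0.802 ± 0.0161 in Q111, 0.731 ± 0.0831 in Q20 and 0.537 ± 0.0849 in Q50 (SD, n = 2 each). Q92 and Q50 held the extremes, and each pair stood clear of the other 10 libraries. The genotype means spanned 1.96 on the log2 scale, against a within-genotype SD of 0.29. Q92 was already known to hold high Rny3 when the ratio was chosen, so this order is a description. A permutation test of it was run and is given in the closing sections, but it is not support.

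In mESC the Rny3 ratio spanned 1.12 on the log2 scale among genotype means, with a within-genotype SD of 0.50. An exact permutation test over the 10395 ways to pair 12 libraries gave p = 0.282 (0.563 adjusted over the 4 ratio tests run). Replicate 1 had the lower ratio in 5 of 6 genotypes, at 3.84 against 9.34 in Q111, 2.20 against 3.63 in KO and 3.24 against 5.18 in WT. With the replicate number as a block, added after the data were seen, the exact permutation p was 0.179 (adjusted 0.358). A genotype difference was not detectable with these libraries under either.

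Gm26168 followed Rny1 closely. Per 100 Rny1 counts mESC held 0.217 ± 0.0253 counts of it and NPC 0.293 ± 0.0179 (SD over 12 libraries), and every NPC library was above every mESC library. Over the 24 libraries the highest ratio was 2.05 times the lowest, while the Rny1 share itself ranged from 0.644% to 40.3%. Among genotypes the exact permutation test gave p = 0.616 in NPC and 0.850 in mESC (adjusted 0.821 and 0.850). As a description over 12 libraries, which share their depth and their scaling, Pearson's r of Rny1 with Gm26168 was 0.949 in mESC and 0.988 in NPC. The r of Rny1 with Rny3 was -0.095 and -0.0042.

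**Figure D3:**
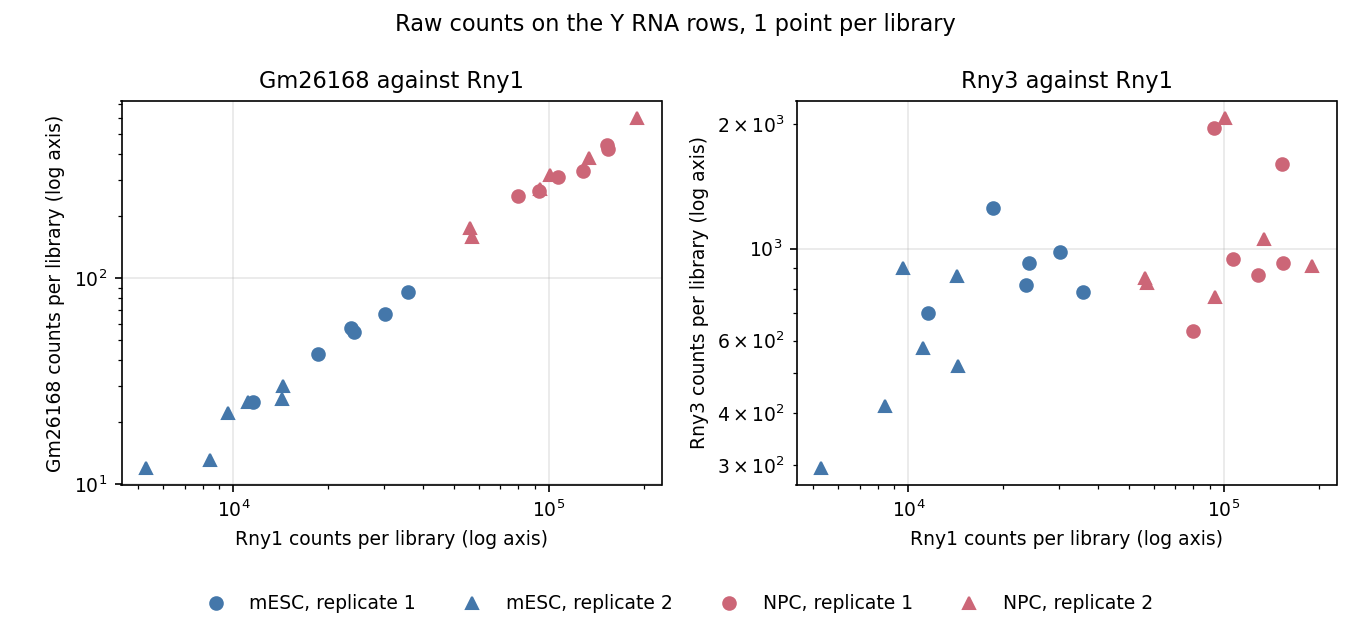
Raw counts of Gm26168 (left) and Rny3 (right) against raw counts of Rny1, 1 point per library, both axes logarithmic, with cell types marked. Gm26168 rises with Rny1 along 1 band from 12 to 599 counts, while Rny3 lies between 296 and 2065 counts over both cell types.

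Genotype differences within a cell type were tested with edgeR's quasi-likelihood test, with p-values adjusted over all genes tested. The members were chosen with earlier results of these data known, so these tests and the interaction below are not independent of that choice. In NPC, all 3 members differed among the 6 genotypes, beside 164 of 441 genes (37.2%). The edgeR adjusted p was 0.00192 for Rny1, 0.000265 for Rny3 and 0.0109 for Gm26168. The calls of Rny1 and Rny3 held when each of the 12 libraries was left out. Rny3 had been seen high in Q92 before, so its call is not independent of that. The call of Gm26168 was lost without Q50 replicate 2 (edgeR adjusted p 0.192), Q92 replicate 1 (0.0682) or the Q20 libraries (0.0568), and with library totals as the scaling (0.0634).

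Rny1 was highest in Q50 NPC. Its shares there, 32.6% and 40.3%, were above those of the other 10 NPC libraries, and the order of means was Q50, Q20, Q92, Q111, KO and WT. From Q92 to WT, each group overlapped the next. WT and KO replicates lay far apart, so several of those neighbours do not differ beyond their spread. Against WT, Rny1 rose by 1.33 ± 0.25 on the log2 scale in Q50 (SE, edgeR adjusted p 0.00731). In that comparison 29 of 441 genes were called (6.58%), 23 of them higher (5.22%). The rise stayed called without any 1 of its 4 libraries, at 0.86 to 1.82. The call was lost in a fit of those 4 libraries alone (1.26, edgeR adjusted p 0.257) and with no filter on low counts (0.90, edgeR adjusted p 0.169).

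In the other lines, Rny1 did not pass the test against WT. The log2 differences were 0.09 ± 0.24 in KO, 0.53 ± 0.25 in Q20, 0.10 ± 0.24 in Q92 and 0.43 ± 0.25 in Q111 (SE). The edgeR adjusted p-values were 0.943, 0.169, 0.814 and 0.302. Of the 441 genes, 1.36% were called in KO, 12.7% in Q20, 18.8% in Q92 and 10.9% in Q111, in either direction. These values rest on the WT libraries, at 22.3% and 13.0%. Without WT replicate 1 Rny1 was called higher in Q20 (0.96) and Q111 (0.97), and without WT replicate 2 it was called lower in Q92 (-0.63). The sign in KO and in Q92 also turned under other scalings or with no filter on low counts.

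Gm26168 showed the pattern of Rny1. It rose in Q50 by 1.38 ± 0.31 on the log2 scale (SE, edgeR adjusted p 0.0109), and its 426 and 599 counts there gave shares above those of the other 10 NPC libraries. The call was lost without WT replicate 2 (0.90, edgeR adjusted p 0.0799) or Q50 replicate 2 (0.86, edgeR adjusted p 0.264). In the other lines the differences were 0.15 to 0.50 and did not pass the test. It was also lost in the fit of the 4 libraries compared (1.32, edgeR adjusted p 0.297) and with no filter (0.95, edgeR adjusted p 1). How much of it comes from reads of Rny1 was not tested.

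Rny3 did not follow them in Q50, where its difference from WT was 0.15 ± 0.16 (log2, SE, edgeR adjusted p 0.744). It rose in Q92, by 0.90 ± 0.16 on the log2 scale (SE, edgeR adjusted p 0.00193), where 38 of 441 genes were called higher (8.62%). The median of all genes in that comparison was itself 0.24 (0.08 to 0.46 under 3 other scalings), and Rny3 stood 0.66 above it. With no filter on low counts the rise was 0.51 and not called (edgeR adjusted p 1). The call was lost without WT replicate 2 (0.35, edgeR adjusted p 0.167) or Q92 replicate 2 (0.73, edgeR adjusted p 0.0621). The high Q92 level had been seen before against Q20, and the Q92 libraries here are the same. In the other 4 lines Rny3 differed from WT by -0.18 to 0.15 and did not pass the test.

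**Figure D4:**
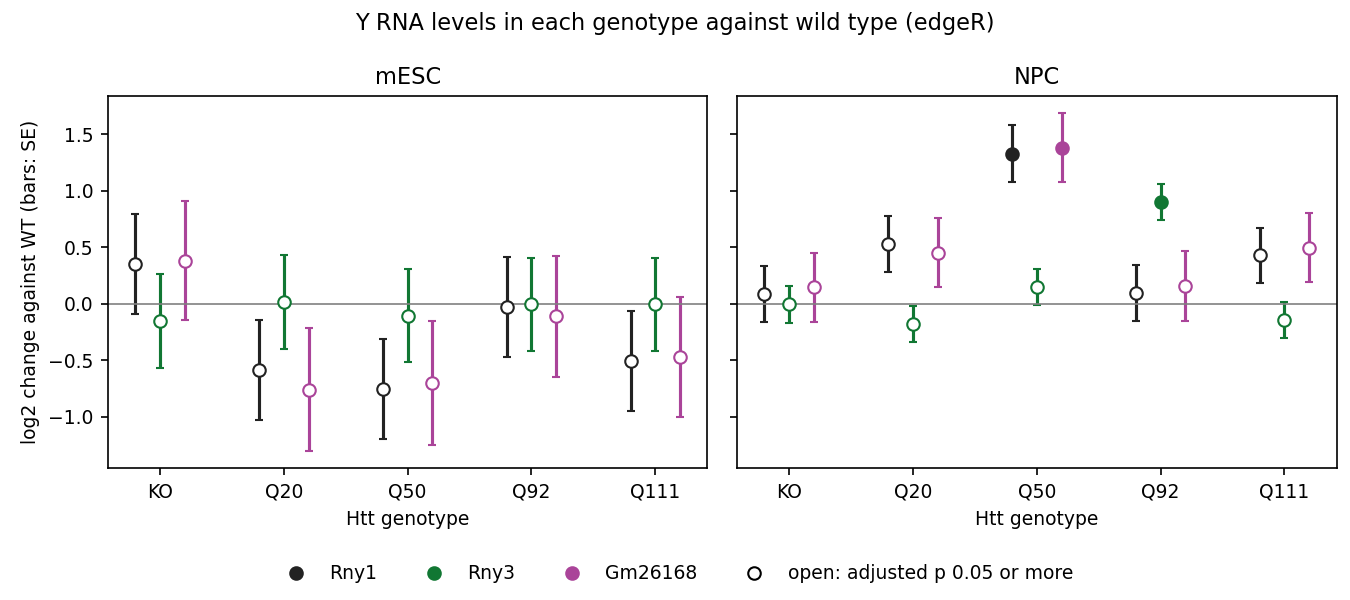
Log2 difference from WT of Rny1, Rny3 and Gm26168 in each genotype, in mESC and NPC, from edgeR; bars are 1 SE and filled points passed an adjusted p under 0.05. In NPC, Rny1 (1.33) and Gm26168 (1.38) passed in Q50 and Rny3 (0.90) in Q92, and none of the 15 mESC differences passed.

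In mESC, no member passed the test among genotypes. The edgeR F-test gave an adjusted p of 1 for each (unadjusted 0.153 for Rny1, 0.998 for Rny3 and 0.280 for Gm26168), beside 1 of 1766 genes called (0.0566%). None of the 15 contrasts with WT was called by edgeR or DESeq2, where edgeR called 1 gene in Q20 (0.0566%) and 0 in the other lines, and 0 members had an unadjusted p under 0.05 in edgeR. The differences ran from -0.76 to 0.38 with SEs of 0.41 to 0.55, wider than in NPC. Both KO libraries had Rny1 shares above the other 10 mESC libraries, at 1.65% and 1.49%. Under the TMM scaling of these tests they did not stand clear. KO replicate 2 (13131 CPM) lay below WT replicate 1 (15024) and Q92 replicate 1 (14483). Rny3 groups all overlapped their neighbours in the order of means.

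The mESC replicates also differed. Replicate 1 was the deeper library in every genotype except Q20, at 2281567 against 1027593 counts in WT. With the replicate number as a block, edgeR's F-test called 29 of 1766 mESC genes and no member (adjusted p 0.176 for Rny1). Replicate 1 had the higher Rny1 share in 5 of 6 genotypes and the higher Gm26168 share in 6 of 6, whereas it had the higher Rny3 share in 1 of 6. In NPC, replicate 1 was higher for Rny1 in 4 of 6, Gm26168 in 3 of 6 and Rny3 in 4 of 6.

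No member passed the test of a slope on CAG length, fitted to the 8 knock-in libraries within each state. In NPC the slope per 10 repeats was -0.06 ± 0.04 for Rny1, 0.07 ± 0.05 for Rny3 and -0.05 ± 0.05 for Gm26168 (log2, SE). The edgeR adjusted p-values were 0.525, 0.531 and 0.695, beside 26 of 403 genes called (6.45%). Without the Q20 libraries the NPC slopes were -0.16 ± 0.04, 0.01 ± 0.08 and -0.16 ± 0.05 (log2, SE, edgeR adjusted p 0.0731, 0.952 and 0.126). With no filter on low counts the Rny1 slope was -0.08 and was called (edgeR adjusted p 4.88e-10). In mESC the slopes were 0.04 ± 0.05, 0.00 ± 0.05 and 0.05 ± 0.05 (log2, SE), and 0 of 1487 genes were called by edgeR, with 48 at an unadjusted p under 0.05. Without Q20 they were 0.08 ± 0.10, 0.03 ± 0.09 and 0.07 ± 0.10 (log2, SE, edgeR adjusted p 0.999 each). The highest members in NPC were at Q50 and Q92, not at the longest repeat.

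Whether the NPC minus mESC distance differed among genotypes was tested as an interaction over all 24 libraries. The edgeR adjusted p was 0.0108 for Rny1, which was at place 13 of 904 genes, beside 19 of 904 called (2.1%). For Rny3 it was 0.680 and for Gm26168 0.243. Without the Q20 libraries 0 of 850 genes were called. The Rny1 result was lost without the Q20 libraries (0.361), with the Y RNAs left out of the scaling (0.0529), and in 14 of the 24 fits that left out 1 library. The largest such p was 0.344, without Q50 NPC replicate 2.

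Other RNAs made by RNA polymerase III were taken from a list of 10, of which 3 had enough counts to test between cell types. Rn7sk, the 7SK RNA that holds back transcription elongation, had a mESC mean of 174 ± 44.7 CPM and a NPC mean of 283 ± 46.2 CPM (SD over 12 libraries). It rose by 0.38 ± 0.14 (log2, SE, edgeR adjusted p 0.026). Rpph1, the RNA of RNase P, had a mESC mean of 531 ± 346 CPM and a NPC mean of 986 ± 192 CPM (SD over 12 libraries), and rose by 0.70 ± 0.21 (log2, SE, edgeR adjusted p 0.00726). The vault RNA Vaultrc5 differed by 0.13 ± 0.23 (log2, SE, edgeR adjusted p 0.634). Over all genes 30.4% were called higher. The median of the 3 was 0.38, against -0.02 for all genes tested.

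Among NPC genotypes, Rpph1 and Vaultrc5 were called by edgeR's F-test (2 of 3, beside 37.2% of all genes tested). In Q50, where Rny1 was highest, Rpph1 rose by 1.02 ± 0.20 against WT (log2, SE, edgeR adjusted p 0.00731), while Rn7sk stood at 0.04 ± 0.22 and Vaultrc5 at 0.34 ± 0.36 (log2, SE, not called). In Q92, where Rny3 was highest, the 3 RNAs stood at -0.12, -1.08 and 0.04 for Rn7sk, Vaultrc5 and Rpph1 and none was called.

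Messenger RNAs of proteins that bind Y RNAs had low counts in these small RNA libraries. Of 14, 4 could be tested between cell types and 2 were called, both lower in NPC, beside 253 of 904 genes called lower (28%). Ncl, which encodes nucleolin, fell by 1.47 on the log2 scale (SE 0.17, edgeR adjusted p 1.08e-07). Igf2bp1, an RNA-binding protein of early cells, had 353 counts in mESC and 28 in NPC, of which 26 were in the 2 Q20 libraries. Without Q20 it had 263 and 2 counts. Hnrnpk and Ssb (La) did not pass, at -0.05 ± 0.21 and -0.75 ± 0.35 (log2, SE). Trove2, which encodes Ro60, had 72 counts over the mESC libraries and 50 over the NPC libraries, sums that are not scaled for depth. As CPM, its NPC mean was higher, at 8.83 ± 4.23 against 3.94 ± 2.49 for mESC (SD over 12 libraries). Trove2 was not tested between cell types. The 5 enzymes that trim or tail Y RNAs had at most 19 counts in a library.

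The genes most like a member over the 12 libraries of a cell type were found by Pearson's r of log2(CPM + 1), among genes of at least 100 CPM. In NPC, 109 genes were compared and Rny1 was most like Gm26168 (0.988), Snord85 (0.858) and Gm26109 (0.783). Rny3 was most like Snord93 (0.824), Snora62 (0.724) and Rnu12 (0.595). In mESC, 108 genes were compared and Rny1 was most like Snord87 (0.854), Gm22980 (0.811) and Snord55 (0.797). Rny3 was most like Gm25835 (0.687), Snord49b (0.610) and mt-Tv (0.606). The values share the scaling of these libraries and describe them only. Gm26168 was under 100 CPM in mESC and so was not compared there, although its r with Rny1 in mESC was 0.949. Of the genes that were compared, none was among the 3 nearest to a member in both cell types.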

How the data were processed

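The authors deposited 1 table of raw counts per gene for 24 libraries. CASAVA 1.8, STAR, HTSeq and the build GRCm38.p6 are named per the submitters' processing notes. Adapter trimming, the strand setting, the annotation and the treatment of reads with several matches are not given in the sources used here. Counts per gene do not show whether reads came from whole Y RNAs or from fragments. Of 55335 identifiers, 55154 were matched to GENCODE M21. The members and gene lists were chosen with earlier results of these data known.

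Shares and ratios were computed from the counts as deposited. Tests used edgeR 4.0.16 (TMM, filterByExpr at min.count 10 and min.total.count 15, quasi-likelihood F-test, Benjamini-Hochberg over all genes tested, adjusted p under 0.05), fitted on the 12 libraries of a cell type, the 8 knock-in libraries for slopes, or all 24. Ratios were tested by an exact permutation test, with a replicate block added after the data were seen. The fits were tested on simulated data. Alternatives were DESeq2 1.42.0, other scalings, no filter, a fit of the 4 libraries compared, a replicate block, and leaving out libraries. Genes named besides the members were the nearest by correlation, the most counted of each list and those within 20 kb.

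No 2 replicates agreed within sampling noise (chi-square per degree of freedom of 2.02 or more). Sequences were aligned with Biopython 1.88, searched with BLAST 2.17.0 and folded with RNAfold 2.7.2.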

Additional observations from a re-analysis of the deposited data

Results flagged for a closer look

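The NPC minus mESC distance of Rny1 differed among the 6 genotypes by the test of the interaction itself (edgeR adjusted p 0.01076, over 24 libraries). The ratio of NPC to mESC shares ran from 13.9 in KO to 43.1 in Q50. Without the Q20 libraries, of which the NPC ones also held mESC markers at 399 and 401 CPM, the edgeR adjusted p was 0.361. In that fit 0 of 850 genes were called, against 19 of 904 with all libraries, so every call was lost without Q20, that of Rny1 included. The part of those marker RNAs in the result was not tested.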

How the results depend on the processing

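The NPC to mESC ratio of shares stayed on 1 side under every other denominator and without Q20, at 19.2 to 31.8 for Rny1, 3.96 to 6.71 for Rny3 and 25.8 to 42.6 for Gm26168. The calls of Rny1 and Rny3 among NPC genotypes held under all 7 alternatives besides leaving out libraries. The edgeR adjusted p of Gm26168 among NPC genotypes was 0.0634 with library totals and 0.0568 without Q20, and 6.47e-05 to 0.192 leaving out single libraries. That of the Rny1 interaction was 0.0529 with Y RNAs left out of the scaling and 0.361 without Q20, and 0.00491 to 0.344 leaving out single libraries. The adjusted exact permutation p of the Rny3 to Rny1 ratio in NPC was 0.0304, and 0.0550 without Q20; the ratio was chosen with the high Q92 level known, so neither is support.

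With no filter on low counts, the log2 differences from WT in NPC were -0.36 (Rny1) and -0.30 (Gm26168) in KO, 0.90 (Rny1), -0.24 (Rny3) and 0.95 (Gm26168) in Q50, -0.33 (Rny1), 0.51 (Rny3) and -0.26 (Gm26168) in Q92, and -0.10 (Rny1) and -0.034 (Gm26168) in Q111. None of these was called, and the differences that kept both their sign and their outcome are not listed. In that setting 0 of 14269 genes were called by edgeR in Q50 (277 at an unadjusted p under 0.05), and the Rny1 slope in NPC, -0.081, was called (edgeR adjusted p 4.88e-10). In the fit of the 4 libraries compared, Q50 gave 1.26 for Rny1 and 1.32 for Gm26168, not called, with 0 of 234 genes called (34 unadjusted), against 29 of 441 in the fit of 12, and KO gave 0.073 for Rny3. DESeq2 called 19 in Q50. With DESeq2 size factors in edgeR, Rny1 stood at -0.0020 in KO and -0.064 in Q92, and DESeq2 gave -0.0019 and -0.064. With library totals, Rny3 stood at 0.21 in KO and -0.12 in Q50, and at 0.12 in KO with Y RNAs left out of the scaling. The Rny3 slope in mESC was -0.0059 on the log2 of the repeat number. The cause of these changes was not tested.

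Leaving out single libraries, the NPC differences from WT ranged in KO from -0.37 to 0.69 (Rny1), -0.19 to 0.30 (Rny3) and -0.25 to 0.80 (Gm26168). In Q20 they ranged from 0.017 to 0.96, -0.51 to -0.020 and -0.073 to 0.94, and Rny3 was called lower without WT replicate 2. In Q50 they ranged from 0.86 to 1.82, -0.14 to 0.36 and 0.86 to 1.92. In Q92 they ranged from -0.63 to 0.30, 0.35 to 0.86 and -0.58 to 0.41. In Q111 they ranged from 0.018 to 0.97, -0.37 to 0.13 and 0.070 to 1.09, and Gm26168 was called higher without WT replicate 1. The mESC slope of Rny3 ranged from -0.0082 to 0.0084. A lone library left in a group is assumed to vary like the others.

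The replicate number as a block left all 31 edgeR results called or not called as before, with the 15 mESC contrasts with WT counted as 1 result. Rny1 in Q50 NPC was 1.38 with it (edgeR adjusted p 0.000399). Nor did it change the outcome of the 4 ratio tests, where the block was added after the data were seen. With it the Rny3 to Rny1 ratio in NPC had an adjusted exact permutation p of 0.0167. That p is not support, since the ratio was chosen with the high Q92 level known. In mESC, same-numbered samples deviated together in the 10 pairs of groups other than Q20 (correlation 0.46 to 0.68), but not in the 5 pairs with Q20 (0.0090 to 0.049). In NPC, 9 of 15 pairs were over 0.1. Since not every pair was, and no label ties a number to a batch, the block was kept as an alternative. In mESC it raised the genes called by edgeR's F-test from 1 to 29 of 1766, so the mESC results without it are less sensitive. Depth limits Gm26168 in mESC, where a library held 12 to 86 counts.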
